A study of Homo sapiens with 4 samples.

Results

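The regions described here are the ChIP-seq peaks on the arms of human chromosome 7 in OECM1, a cancer cell line of the head and neck. The short arm (7p) was taken from 3 to 55 Mb and the long arm (7q) from 64.1 to 156.1 Mb, in GRCh37 coordinates. These stretches held 413 of the 11483 rows of the 4 deposited peak lists, 204 on 7p and 209 on 7q. An interval around EGFR, from 55.09 to 55.28 Mb, was looked at on its own and held 0 peaks. The stretches were chosen by earlier counts of the peaks in these same lists, which differed there, so the numbers of peaks by arm and by cells describe the choice. No test was run on them.

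Each list came from 1 library. Control cells (label Cas9-ctrl) and cells that received Cas9 directed at ARID3B (label ARID3B-Cas9, called edited cells here) were each profiled with an antibody against ARID3B and with one against KDM4C, and all were grown in RPMI with fetal bovine serum. The edit is called KD in the sample titles but a knockout in the title of the series, and the labels do not say whether the edited cells are 1 clone or a pool. How much ARID3B protein the edited cells retained was not analysed here. Peak lists hold no expression values, so the cell line label could not be checked against marker genes. Because no group has a replicate, every difference below has no replicate check, and the 95% intervals (exact, binomial) cover counting error between these libraries alone.

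ARID3B belongs to the proteins with an AT-rich interaction domain, which bind DNA and take part in regulating transcription and chromatin. KDM4C is a demethylase that removes methyl groups from lysines of histone H3, among them lysine 9. EGFR, on 7p, encodes the epidermal growth factor receptor, a receptor tyrosine kinase that is often amplified or overexpressed in head and neck squamous carcinoma. A peak caller looks for places where immunoprecipitated fragments pile up above the level around them, so the number of peaks in a stretch depends on the protein's binding, on the number of tags (sequenced fragment ends) and on the local background.

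After removal of duplicates the libraries held 16209985 to 24439463 tags, with the control library the deeper of each pair. Away from chromosome 7 both antibodies gave more peaks in edited than in control cells, 4645 against 3021 for ARID3B and 1807 against 1400 for KDM4C. These are edited-to-control ratios of 1.54 and 1.29. Every ratio on the arms is read beside these values.

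On 7p the ARID3B peaks were fewer in edited cells, and on 7q they were more numerous. The 7p stretch held 130 ARID3B peaks without the edit (control) and 36 with it, a ratio of 0.277 (95% interval 0.186 to 0.403). The 7q stretch held 54 and 94, a ratio of 1.74 (1.23 to 2.48). The 7q value lay near that of the other chromosomes, at 1.13 times their ratio (0.799 to 1.62), whereas the 7p value was 0.180 times theirs (0.121 to 0.263). Relative to 7q, the 7p ratio was 0.159 (0.0936 to 0.269).

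The KDM4C peaks were few on both arms, and their intervals were wide. On 7p the control library had 25 and the edited library 13, a ratio of 0.520 (0.244 to 1.06), and on 7q there were 27 and 34, a ratio of 1.26 (0.737 to 2.17). The 7p ratio was 0.403 times that of the other chromosomes (0.189 to 0.822) and 0.413 times that of 7q (0.163 to 1.03). The ARID3B ratio on 7p was 0.533 times the KDM4C ratio there, with an interval of 0.235 to 1.26 that includes 1. A KDM4C ratio of like size was also found in the 23 Mb of 7q nearest its tip, with 6 control and 3 edited peaks and a ratio of 0.5.

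**Figure D1:**
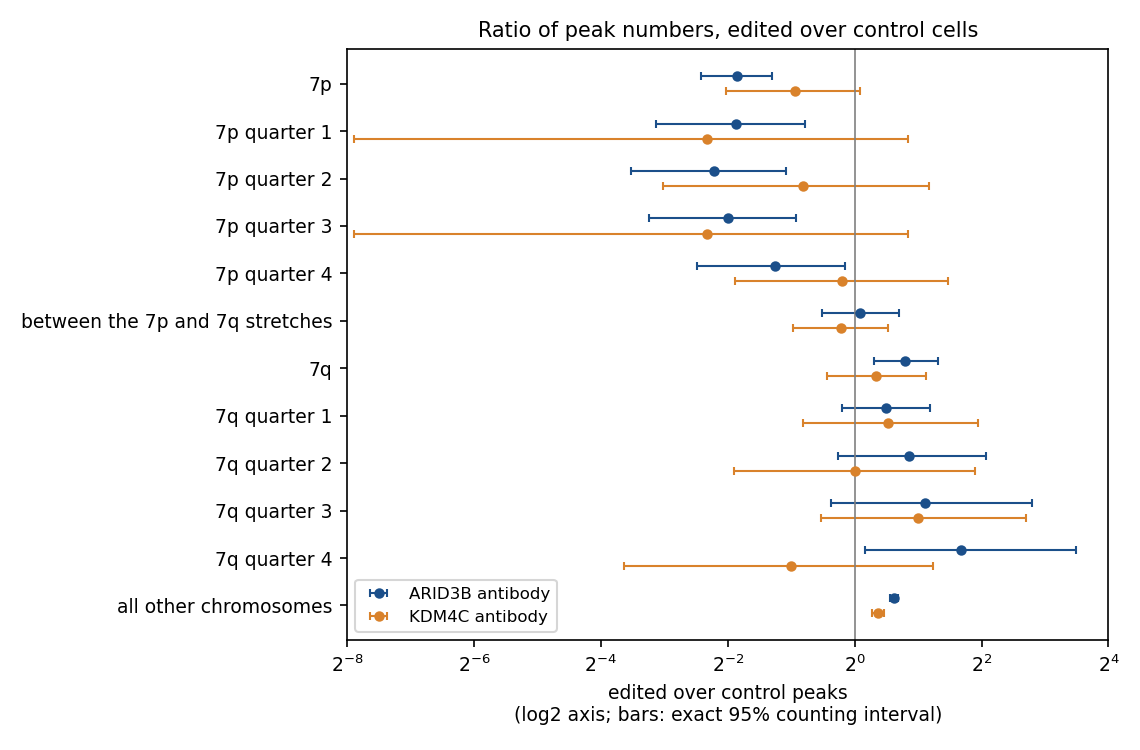
Edited-to-control ratios of peak numbers (log2 axis) for the stretches, the 4 equal spans of each arm (numbered from the tip of 7p to the tip of 7q) and the other chromosomes, with points for the ratio and bars for the exact 95% interval. The ARID3B point for 7p lies at 0.277, and the KDM4C point for 7p at 0.520 has a bar that crosses 1.

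In control cells the ARID3B peaks were dense on 7p. They numbered 2.50 per Mb there against 0.587 per Mb on 7q, a 4.26-fold difference (3.08 to 5.96). In edited cells the order of the counts turned, with 0.692 per Mb on 7p and 1.02 per Mb on 7q. That ratio was 0.678 (0.448 to 1.005), with an interval that includes 1. The KDM4C densities were 0.481 and 0.293 per Mb in control cells, a ratio of 1.64 (0.912 to 2.93). With the edit they were 0.250 and 0.370 per Mb, a ratio of 0.676 (0.328 to 1.32). The 7p stretch took 3.98% of the whole control ARID3B list and 0.745% of the edited one, and 1.67% and 0.687% of the KDM4C lists. On 7q those shares were alike, at 1.65% and 1.94% for ARID3B and 1.81% and 1.80% for KDM4C.

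The proportion of the antibodies is given from the same counts. In control cells 7p had 5.20 ARID3B peaks for each KDM4C peak (3.37 to 8.33), against 2 on 7q and 2.16 on the other chromosomes. In edited cells the 7p value was 2.77 (1.43 to 5.69), beside 2.76 on 7q and 2.57 on the other chromosomes. These counts are part of what chose the stretch, so no library is singled out from them.

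Stretches of 52 Mb, the length of 7p, were moved along the other chromosomes in steps of 1 window to give the range of such counts elsewhere. Since 7p was chosen for its counts, its rank among them is not read. Overlapping stretches share peaks, so their number is not a number of independent places. Among 888 stretches with at least 10 control ARID3B peaks, the ratio ran from 0.762 to 9.6 with a median of 1.51. The lowest was on chromosome 11, from 6000001 to 58000000, with 101 peaks in control and 77 in edited cells. These stretches held a median of 42 control and 65 edited ARID3B peaks, and the highest control number, on chromosome 5, was 166. For KDM4C the lowest of 741 stretches lay on chromosome 5 from 64000001 to 116000000, with 14 and 6 peaks and a ratio of 0.429.

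The difference in ARID3B peaks ran along the whole 7p stretch. Divided into 4 spans of 13 Mb from the tip towards the centromere, 7p held 33, 37, 36 and 24 peaks in control cells and 9, 8, 9 and 10 in edited cells. The ratios were 0.273, 0.216, 0.250 and 0.417. The 4 spans of 23 Mb on 7q held 32, 11, 6 and 5 peaks in control cells and 45, 20, 13 and 16 in edited cells, with ratios of 1.41, 1.82, 2.17 and 3.20. For KDM4C the 7p spans held 5, 7, 5 and 8 control peaks and 1, 4, 1 and 7 edited peaks, so that the span next to the centromere had a ratio of 0.875.

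In windows of 2 Mb, a window was compared where the libraries of 1 antibody held at least 5 peaks together, and counted as lower or higher at a ratio of at most 0.5 or at least 2. Of the 25 windows that lie whole in 7p, 18 could be compared for ARID3B. In 17 of these, 94.4%, the edited count was lower past that fold, and in 0 it was higher. Across the genome 8.93% of 571 compared windows were lower and 35.4% were higher. On 7q, 12 of 45 windows could be compared, with 1 lower and 5 higher. For KDM4C the 7p stretch gave only 2 windows to compare, 1 lower and 0 higher, and 7q gave 1, which was higher. The background shares for KDM4C were 11% lower and 23.4% higher of 145 windows. Since these windows count the peaks that chose the stretch, nothing is read from the 7p shares.

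Window by window, the control ARID3B count on 7p ran from 1 to 9 with a median of 5, and none of the 25 windows was empty. The edited count ran from 0 to 3 with a median of 1, and 6 windows were empty. The widest gaps were at 14 to 16 Mb, with 9 peaks in control and 1 in edited cells, and at 16 to 18 Mb and 34 to 36 Mb, each with 8 and 1. The window at 18 to 20 Mb held 6 control peaks and 0 edited peaks. The compared window that stayed short of the fold was at 48 to 50 Mb, with 3 and 2. The control count was above the edited count in 24 of the 25 windows, and the exception was 42 to 44 Mb, with 1 and 2.

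The control ARID3B peaks were spread along the arm. The variance of the window counts over their mean was 1.03 on 7p in the control ARID3B list, where 1 is the value for random scatter. In that list it was 2.55 on 7q and 6.29 on the other chromosomes, which include windows of up to 62 peaks. On 7p it was 0.728 in the edited ARID3B list, and 1.34 and 1.3 in the KDM4C lists. On 7q these lists had 1.87, 0.733 and 1.35. Neighbouring control ARID3B peaks on 7p lay a median of 274 kb apart, and the longest gap was 1.82 Mb. In edited cells the median gap was 1160 kb and the longest 5.10 Mb. The KDM4C windows of 7p held 0 to 4 peaks in control cells and 0 to 3 in edited cells, with 11 and 16 of the 25 windows empty. The control KDM4C count was the higher in 9 windows and the edited count in 5, and they were equal in 11.

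**Figure D2:**
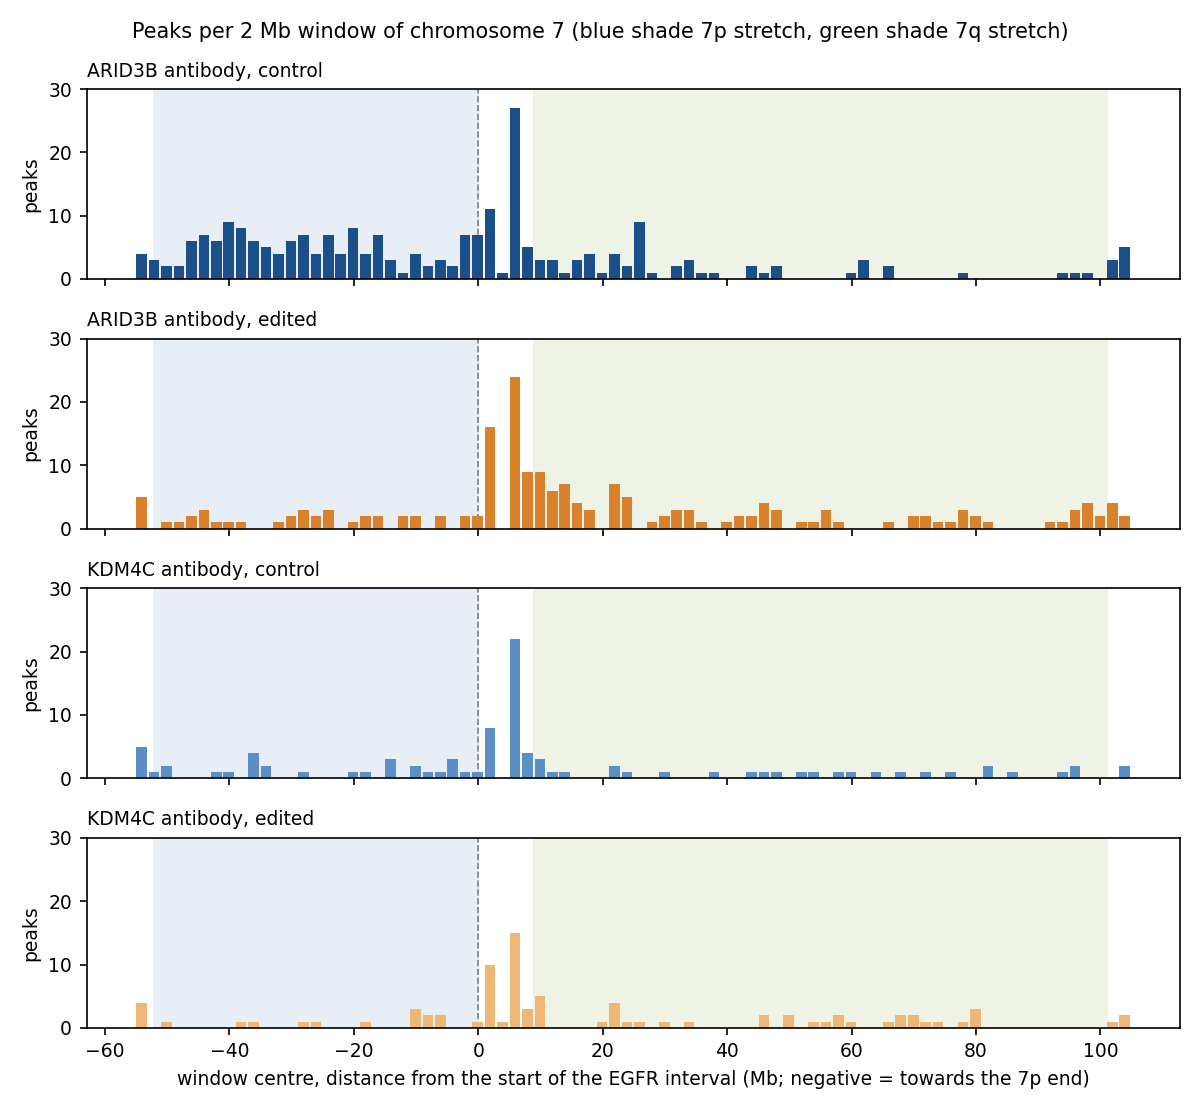
Peaks per 2 Mb window of chromosome 7, with 1 panel for each library and a shared scale, against the distance of the window from the start of the EGFR interval in Mb (negative towards the tip of 7p, dashed line at 0, shading for the 7p and 7q stretches). On 7p the control ARID3B bars reach up to 9 and the edited bars up to 3, and the tallest bars of all 4 panels lie between the stretches.

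The place along the chromosome where the ARID3B ratio changed was estimated with a single step. Each boundary, spaced by 0.1 Mb, divides the counted peaks into a left and a right part with a ratio each, and boundaries whose binomial log-likelihood lies within 2 natural log units of the best form the supported span. With the peaks of the 7p and 7q stretches, the best boundaries ran from 54.8 to 64.2 Mb, where no counted peak lies, and the span was 53.9 to 64.9 Mb. This left 130 control and 36 edited peaks on one side and 54 and 94 on the other. These are the counts that chose the arms, so a boundary between them was set by the choice, and the span only describes its place.

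Adding the peaks between the stretches narrowed the span, a setting added after the data were seen. Over the whole of chromosome 7 the best boundary for ARID3B lay at 56.9 to 57.5 Mb with a span of 55.3 to 57.7 Mb. To its left were 144 control and 44 edited peaks, a ratio of 0.306, and to its right 99 and 145, a ratio of 1.46. The span began just after the EGFR interval, which ends at 55.28 Mb. Its lower limit was the first boundary past a control ARID3B peak of 19 tags, at 55280507 to 55280908. The ARID3B span over the arms, 53.9 to 64.9 Mb, includes the interval. So does the span of both antibodies summed over the whole chromosome, 54 to 57.7 Mb. The side of EGFR on which the ratio changed is therefore not read from these spans. The windows around the whole-chromosome span held, control given first, 7 and 2 peaks at 54 to 56 Mb and 11 and 16 at 56 to 58 Mb. Beyond these were 1 and 0 at 58 to 60 Mb, 27 and 24 at 60 to 62 Mb and 5 and 9 at 62 to 64 Mb. Past the boundary the control count was thus the higher in some windows and the edited count in others. Between the stretches, from 55 to 64.1 Mb, the ARID3B peaks numbered 46 in control and 49 in edited cells, a ratio of 1.07.

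No second boundary could be placed inside 7p. Searched within the 7p stretch alone, the best boundary for ARID3B was at 26.9 to 27.3 Mb, with 66 and 13 peaks to its left and 64 and 23 to its right. The supported span of 3.1 to 54.9 Mb covered nearly the entire stretch. The KDM4C peaks did not place a boundary either, with a span of 21.6 to 141 Mb over the arms. With both antibodies summed the span was 54 to 64.9 Mb over the arms and 54 to 57.7 Mb over the whole chromosome, resting mainly on ARID3B.

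**Figure D3:**
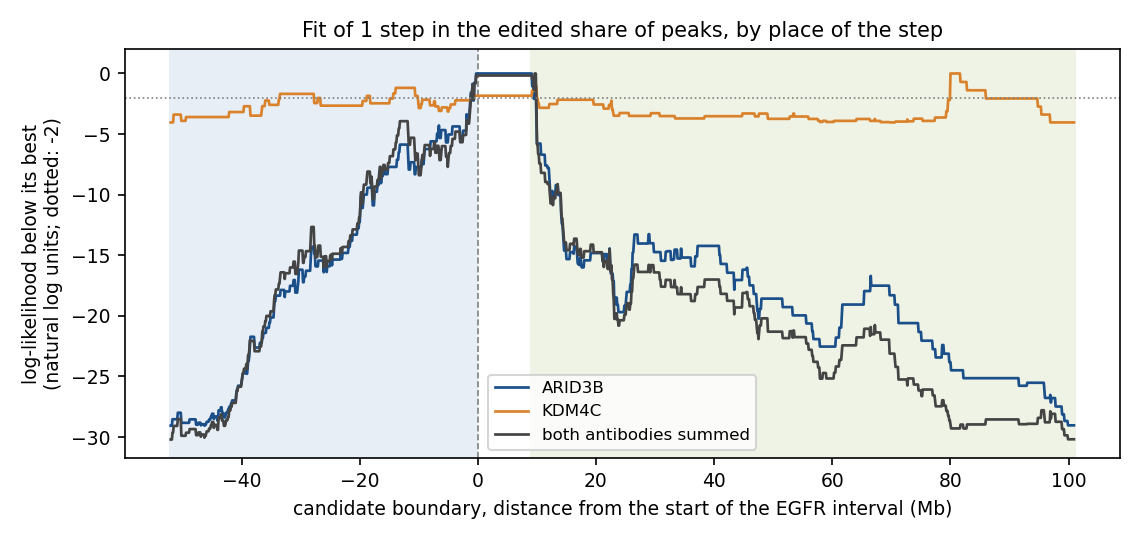
Log-likelihood (natural log units below its best value) of a single step in the edited share of the peaks in the 7p and 7q stretches, against the place of the step as distance from the start of the EGFR interval in Mb, for ARID3B, KDM4C and both summed, with a dotted line at 2 units below the best. The ARID3B curve is above that line from 53.9 to 64.9 Mb of the chromosome, across the gap between the shaded stretches, and parts of the flatter KDM4C curve are above it from 21.6 to 141 Mb.

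**Figure D4:**
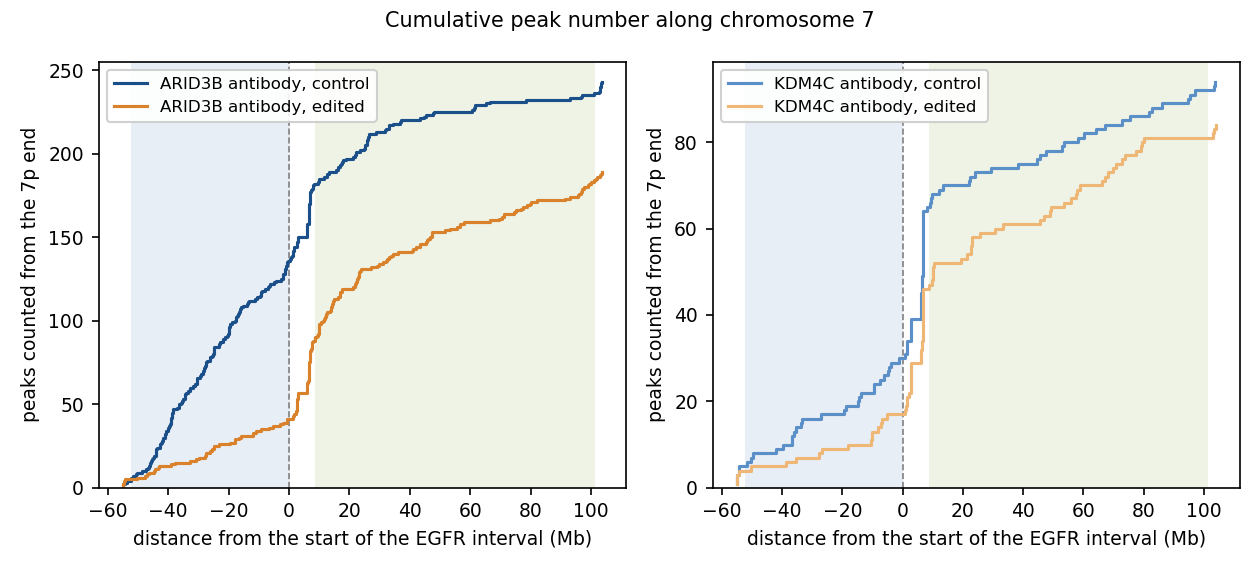
Number of peaks counted from the tip of 7p, against distance from the start of the EGFR interval in Mb, for ARID3B (left) and KDM4C (right) in control and edited cells, with shading for the stretches. The control ARID3B curve climbs steadily through 7p, where 130 of its 243 peaks lie, and the edited curve, with 36 of 189, climbs mainly after it.

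The limits of the stretches were given and not fitted. In the control ARID3B list the last peak before 7p was at 2918948 to 2919573, with 31 tags, and the first inside was at 3373000 to 3373184, with 10 tags. At the other end the last peak inside was at 54790095 to 54790673, with 31 tags, and the first after it at 55280507 to 55280908, with 19. In the edited ARID3B list the last peak inside was at 54284296 to 54284503, with 10 tags, and the first after it at 56438162 to 56440878, with 356.

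The EGFR interval carried no peak in any of the 4 lists. The interval is 190 kb long, and at the density of each library's own 7p peaks 0.475 and 0.132 ARID3B peaks would fall in a stretch of that length in control and edited cells, and 0.0913 and 0.0475 KDM4C peaks. Each of these is less than 1 peak. A list names only places past the caller's cutoff, where the smallest peaks had 9 or 10 tags, so it does not show how many tags fell on the gene.

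The nearest ARID3B peak in control cells began 507 bp after the interval, at 55280507 to 55280908, with 19 tags and a 5.81-fold enrichment over the local background. The nearest before it ended 299 kb away and had 31 tags. In edited cells the nearest ARID3B peaks were 805 kb before and 1.16 Mb after. For KDM4C they were 1.14 Mb before and 532 kb after in control cells, and 5.14 Mb before and 611 kb after in edited cells. Within 1 Mb of the interval there were 8 control and 2 edited ARID3B peaks, and 1 and 2 KDM4C peaks. Within 2 Mb the ARID3B lists held 19 and 6 and the KDM4C lists 5 and 4. Gene order around EGFR was read from RefSeq on another build, with SEC61G and VSTM2A on the side of the tip and LANCL2 and VOPP1 on the side of the centromere. The peaks were not assigned to these genes, since that needs an annotation of the files' build.

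Most ARID3B peaks of 7p were weak, as were most on 7q and on the other chromosomes. The score grows by 10 for each 10-fold drop in the p-value the caller assigned, with a cutoff of 50. In control cells the 7p peaks had a median score of 56.1, a median of 14 tags and a median length of 292 bp. In edited cells the medians were 54.7, 10 tags and 225 bp. Only 40 of the 130 control peaks and 10 of the 36 edited peaks reached a score of 60, and 2 and 3 reached 100. On 7q a score of 60 was reached by 21 of 54 control and 36 of 94 edited peaks. On the other chromosomes it was reached by 1303 of 3021 and 1799 of 4645, with median scores of 57.9 and 56.8. At a score of at least 60 the 7p ratio was 0.250 (0.111 to 0.509). At a score of at least 100 it was 1.5 (0.172 to 18.0), an interval that includes the ratio of all 7p peaks. Whether the strongest peaks shared the lower count cannot be told from so few. The KDM4C peaks of 7p reached a score of 60 in 2 cases in control and 3 in edited cells, a ratio of 1.5 with the same interval. In these lists the lower KDM4C count thus lay in peaks below that score, but that interval also includes the ratio of all KDM4C peaks on 7p.

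In number, the lower count of 7p lay in peaks of low fold enrichment, the ratio of a peak's height to its local background. Under a fold of 10, 7p held 107 control and 13 edited ARID3B peaks, a ratio of 0.121 (0.0627 to 0.217). At a fold of at least 10 it held 23 and 23, a ratio of 1 (0.536 to 1.87). The other chromosomes gave 1.37 under that fold and 1.95 at or above it, and 7q gave 1.5 and 2.22. At or above that fold the 7p ratio was thus still below both, at 0.45 times that of 7q (0.187 to 1.08). For KDM4C the 7p counts were 23 and 1 under a fold of 10 and 2 and 12 at or above it, so that the direction turned, with a ratio of 6 (1.34 to 55.2) on 14 peaks. The fold contains the local background, which itself differed on 7p, and the edited library of each pair had fewer tags. The part of either in these counts was not tested.

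Local background was higher at the control peaks of 7p than at the edited ones, with both antibodies. It was recovered from each peak's tags and score and is given relative to the genome mean, below which the caller does not go. At the ARID3B peaks of 7p the median was 1.23 (quartiles 1.08 and 1.47) in control cells and 1 in edited cells. At the KDM4C peaks it was 1.4 (quartiles 1.23 and 1.5) and 1.03. On 7q the 4 medians lay between 1.06 and 1.08. On the other chromosomes they were 1.25 in control and 1.23 in edited cells for ARID3B, and 1.42 and 1.33 for KDM4C. Without regions called in all 4 libraries, the medians elsewhere were 1.18 in control and 1.18 in edited cells for ARID3B. For KDM4C they were 1.23 and 1.2. Those of 7p were then 1.23 and 1 for ARID3B, and 1.37 and 1.02 for KDM4C. Compared in that way, the control medians of 7p lay above those of the other chromosomes, and the edited medians below. The caller's 10 kb window around a 7p peak held a median of 111 tags in the control ARID3B library, where the genome mean is 90.5, and 77.3 in the edited library, which is its genome mean.

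The share of 7p peaks whose background sat at that mean (within 2%) differed in the same way. It was 18 of 130 in the control ARID3B list and 26 of 33 in the edited one, where 3 more peaks gave no value. For KDM4C it was 2 of 25 and 6 of 13. On 7q the shares were alike in all 4 lists, from 42.6% to 47.1%. On the other chromosomes they were 27.6% in control and 27.7% in edited cells for ARID3B, and 20.7% and 22.3% for KDM4C. Without regions called in all 4 libraries, they were 31.1% and 30.3% there for ARID3B, and 27.9% and 28.0% for KDM4C. On 7p they were then 14.0% and 78.8% for ARID3B, and 8.33% and 50% for KDM4C. With the peak's own tags taken out, the window stood at 1.11 times the genome mean in the control ARID3B library and at 0.893 in the edited one, and at 1.27 and 0.877 for KDM4C, where peaks at the mean give upper limits. On 7q these values lay between 0.934 and 0.954. On the other chromosomes they were 1.11 in control and 1.09 in edited cells for ARID3B, and 1.24 and 1.14 for KDM4C. Without regions called in all 4 libraries, they were 1.06 and 1.05 there for ARID3B, and 1.1 and 1.05 for KDM4C. On 7p they were then 1.11 and 0.893 for ARID3B, and 1.24 and 0.876 for KDM4C.

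The control background of 7p ran along the arm. Without regions called in all 4 libraries, its median in the 4 spans from the tip was 1.13, 1.22, 1.29 and 1.3 in the control ARID3B library and 1.18, 1.23, 1.41 and 1.48 in the control KDM4C library. In the edited ARID3B library it was 1, 1, 1 and 1.03. The span of 7q next to the centromere had medians of 1.15 in control and 1.22 in edited cells for ARID3B. For KDM4C they were 1.19 and 1.44, so the edited median was the higher there with both antibodies. In the other 7q spans the medians lay between 1 and 1.07. The background is known only at called peaks, and these lie at other places in each library. How far it accounts for the number of peaks was not tested.

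**Figure D5:**
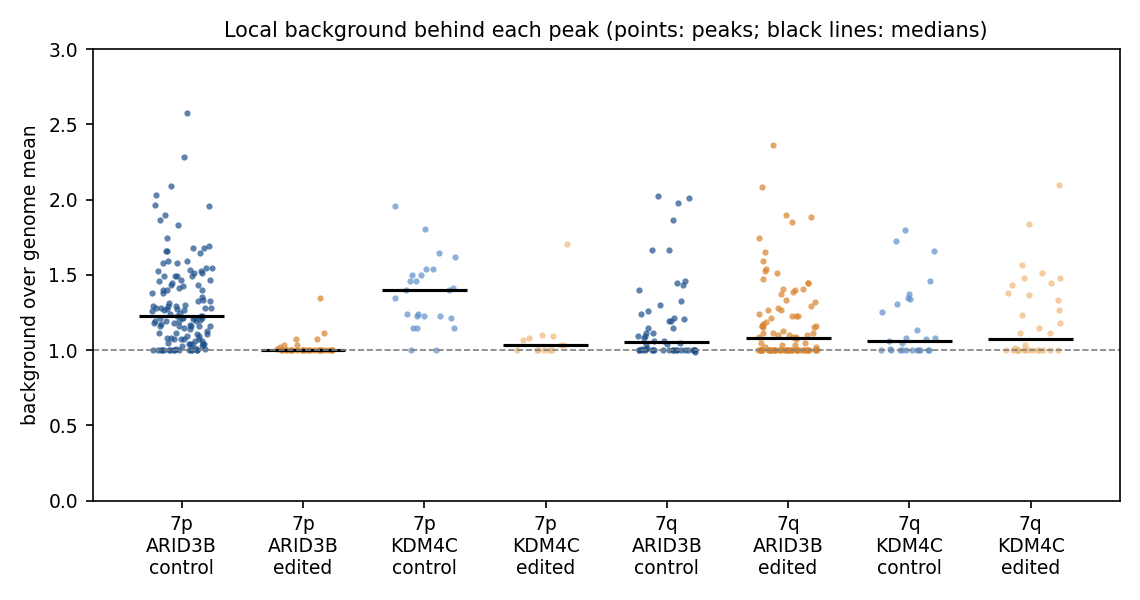
Recovered local background at each peak relative to the genome mean, for the 7p and 7q stretches and each library, with points for peaks and a line for the median. On 7p the control medians of 1.23 and 1.4 lie above the edited medians of 1 and 1.03, and on 7q the 4 medians lie between 1.06 and 1.08.

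Few peaks of the arms were called at the same place again, with an overlap of at least 1 bp. On 7p 6 of 130 control ARID3B peaks were called again in edited cells, 4.62% (1.71 to 9.78), against 25.2% over the whole list. In the other direction it was 6 of 36, 16.7%, against 17.3%. On 7q it was 5 of 54, 9.26%, and 5 of 94, 5.32%. For KDM4C 1 of 25 control peaks of 7p was called again in edited cells, against 36.7% of the list, and 1 of 13 edited peaks in control cells, against 27.7%. The 7q counts were 2 of 27 and 2 of 34.

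Split by score, the shares called again were as follows. Of the control ARID3B peaks with scores from 50 to 60, 2 of 90 on 7p were called again in edited cells, or 2.22%, against 7.68% on the other chromosomes. From 60 to 100 it was 2 of 38, 5.26%, against 30.9%. On 7q it was 2 of 33, 6.06%, and 2 of 20, 10%, so the share from 60 to 100 was low on both arms. In the other direction, 2 of 26 edited peaks of 7p with scores from 50 to 60 were called again in control cells, 7.69%, against 4.22% on the other chromosomes, and 1 of 7 from 60 to 100, 14.3%, against 19.9%. Both control peaks of 100 and over on 7p were called again, and 94.6% of such peaks elsewhere were.

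The antibodies shared few places on the arms as well. In control cells 1 of 130 ARID3B peaks on 7p overlapped a KDM4C peak, 0.769%, against 17.8% of the whole list, and in edited cells it was 2 of 36, 5.56%, against 14.3%. Of the KDM4C peaks, 1 of 25 in control cells overlapped an ARID3B peak, against 39.3%, and 2 of 13 in edited cells, against 35.2%. The whole-list shares include regions called in all 4 libraries, which were rarer on 7p. Outside such regions lay 129 of 130 control ARID3B peaks on 7p and 2572 of 3021 on the other chromosomes. For control KDM4C peaks these counts were 24 of 25 and 948 of 1400. Overlap of the antibodies outside such regions was not computed. On 7q the ARID3B counts were 2 of 54 and 3 of 94. Merged over the 4 lists, 7p held 195 regions. A single library called 189 of these, 2 libraries called 4, 3 libraries called 1 and all 4 called 1. The 7q stretch held 197, of which 189 were in 1 library and 2 in all 4. Over the genome 88.1% of regions were in 1 library and 4.62% in all 4.

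The 7p region called in all 4 libraries lay at 4851061 to 4851388 in the control ARID3B list. It had 27 tags in control and 25 in edited cells with the ARID3B antibody, and 15 and 25 with the KDM4C antibody. Its fold enrichment was 16.5 and 31.3 for ARID3B and 12.4 and 26.0 for KDM4C. The edited library thus had the higher fold with both antibodies here. The KDM4C background of this region was 1.54 times the genome mean in control and 1.7 times in edited cells. It includes the peak's own tags, 15 of 118 in the 10 kb window in control and 25 of 102 in edited cells. The order of these backgrounds is therefore not set against that of the arm. A second region, at 27307092 to 27307411, was called in both ARID3B lists with 22 and 17 tags (folds of 10.8 and 21.7) and in the edited KDM4C list with 10 tags and a fold of 17.5.

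A further 3 places were called in both ARID3B lists. The widest, at 30155036 to 30156015, had 81 tags in control and 29 in edited cells, with folds of 7.49 and 13.4, and its background was 2.57 times the genome mean in control and 1.34 times in edited cells. Those at 27626475 to 27626792 and at 53223241 to 53223579 had 14 and 9 tags and 16 and 11 tags, with folds of 12.6 and 9.82 and of 9.51 and 12.2. Their background was 1.16 against 1 and 1.22 against 1.07, so these 3 places, measured in both libraries, had the higher background in control cells. That background includes the tags of the peak itself. At the regions at 4851061 and at 27307092, no edited ARID3B background was recovered. A sixth place called in both ARID3B lists was not among those named by fold. Of the 5 described, 4 had the higher fold in edited cells and all had fewer tags there, in a library with fewer tags in all.

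The peaks called with ARID3B in control cells only numbered 124 on 7p. Of these, 88 had a score under 60 and 0 reached 100, and 0 overlapped a KDM4C peak. Their fold enrichment ran from 4.92 to 12.7. The highest was at 27633591 to 27633750, with 11 tags, and the next at 20516098 to 20516410, with 17 tags and a fold of 11.6. The 30 peaks called in edited cells only were led by 10899894 to 10900143, with 14 tags and a fold of 14.7, and 27546477 to 27546596, with 9 tags and a fold of 14.4. Peaks of so few tags can pass or miss the cutoff by counting error.

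For KDM4C, 24 peaks of 7p were called in control cells only and 12 in edited cells only. The control set was led by 41195310 to 41195570, with 10 tags and a fold of 11.2. The edited set was led by the region at 27307086 to 27307259 described above, followed by 45061918 to 45062285, with 11 tags and a fold of 15.8.

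On 7q the control ARID3B count was above the edited count in 7 of the 45 windows, equal in 12 and below in 26. Only 1 compared window was lower in edited cells past the fold. At 80 to 82 Mb the control ARID3B list held 9 peaks and the edited list 0. They lay from 80115675 to 81533730, with 11 to 19 tags, folds of 6.71 to 11.5 and a background of 1 to 1.15. Without this window, left out after the data were seen, 7q held 45 control peaks and a ratio of 2.09. The 5 windows that were higher in edited cells held 3 and 6 peaks at 66 to 68 Mb, 1 and 7 at 68 to 70 Mb, 2 and 5 at 78 to 80 Mb, 1 and 4 at 100 to 102 Mb and 1 and 4 at 152 to 154 Mb.

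On 7q, 49 ARID3B peaks were called in control cells only and 89 in edited cells only. The region with the highest folds in all 4 libraries lay at 100550699 to 100551219, with 48 and 38 ARID3B tags (folds of 12.7 and 17.7) and 19 and 27 KDM4C tags (folds of 12 and 16.5). Its ARID3B background was 2.02 in control and 1.85 in edited cells, and its KDM4C background was 1.46 and 1.84, the opposite order. The other 7q region found in all 4 lists began at 64954263, just past the span that the arms alone gave for the change in ratio. There the control peaks had 18 ARID3B tags and 19 KDM4C tags, and the edited peaks 28 and 23. The ARID3B peaks, at 64954263 to 64954548 in control and 64954614 to 64955082 in edited cells, did not overlap. They were joined through the control KDM4C peak at 64954370 to 64954808, so their tags come from neighbouring places.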

How the data were processed

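ChIP-seq libraries for ARID3B and KDM4C from control and ARID3B-edited OECM1 cells were analysed from the authors' peak lists, 1 per group, with groups taken from the sample titles. Peaks were called with MACS 1.4.2 per library without an input library, per the file headers (p-value cutoff 1.00e-05, effective genome 2.7 Gb, 10 kb background window, at most 1 tag per position). Per the submitters' processing notes, the tools were BWA 0.7.12 and bcl2fastq 2.1.5 and the build GRCh37. The deposited tag counts are whole tags per peak, not normalized. The deposited score is the log10 of the p-value multiplied by 10 with its sign turned, and the deposited fold enrichment is the ratio to local background.

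A peak was counted in a stretch when it lay wholly within it, and in a window by its summit, with Python 3.11.15, numpy 2.4.6, scipy 1.17.1 and pandas 2.3.3, checked on simulated data. Intervals are exact at 95%. Background is the Poisson mean that gives the deposited score at the deposited tag count. The members and lists were chosen with earlier results of these data known. Named regions are those of highest fold enrichment on each arm, called in control cells only, in edited cells only, in both or in all 4 libraries, the peaks next to EGFR and the windows past the fold. Other score, fold, window and overlap settings were tried. No genome of the files' build was used, so no peak sequence or gene assignment is given.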

Additional observations from a re-analysis of the deposited data

Results flagged for a closer look

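Chromosome 7 peaks outside the stretches and the EGFR interval were looked at because the comparisons by arm leave them out. From the start of the chromosome to 3 Mb there were 6 ARID3B peaks in control and 5 in edited cells, and 5 and 4 KDM4C peaks. Between the stretches, around the centromere, the ARID3B lists held 46 and 49 peaks and the KDM4C lists 35 and 30. From 156.1 Mb to the end there were 7 and 5 ARID3B peaks.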

How the results depend on the processing

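Of 70 values for 22 results under other settings, 57 stayed inside the interval, span or quartiles of the reported value and 13 did not. Of 35 ratios among them, 7 fell on the other side of 1, 1 for ARID3B and 6 for KDM4C. The ARID3B ratio on 7p became 1.5 at a score of at least 100, 1 at a fold of at least 10 and 0.162 with lists of equal length, where 130 control peaks met 21 edited peaks. Relative to 7q it became 0.75 and 0.45 at that score and that fold. The KDM4C ratio on 7p became 1.5 at a score of at least 60 and 6 at a fold of at least 10, that on 7q 0.375 at a score of at least 60, and 7p relative to 7q 4 and 5. With lists of equal length the KDM4C ratio on 7q became 0.815, inside its wide interval. The best place of the KDM4C step moved from 135.1 to 100.6 Mb at a score of at least 60 and to 64.7 Mb over the whole chromosome, inside an equally wide span. With a score of at least 60 for the peaks looked for, 10% (4 of 40) of control ARID3B peaks on 7p were called again in edited cells, 40% (4 of 10) of edited ones in control cells and 0% (0 of 2) of control KDM4C peaks. The cause of these moves was not tested. At a score of at least 100 no control KDM4C peak was left on either arm, so no ratio was formed. Windows of 1 and 5 Mb, or shifted by 1 Mb, gave 83.3%, 90% and 82.4% of compared 7p windows lower in edited cells.

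No paired analysis was possible because each group held 1 library and the labels give no replicate numbers. Differences in depth between the libraries, the lack of an input library and peaks of 9 to 14 tags limit what these counts can show.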
